A study of Mus musculus with 6 samples.

Results

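The genes described here are 10 members of the transforming growth factor beta (TGF-β) system: the ligands Tgfb1, Tgfb2 and Tgfb3, the activin subunit gene Inhba, the receptors Tgfbr1, Tgfbr2 and Tgfbr3, the latent binding protein genes Ltbp1 and Ltbp2, and Tgfbi, a matrix protein gene named for its induction by TGF-β. They were chosen by name, with earlier results of these data known. They are the rows of the deposited gene table that carry these symbols, and make up 10 of its 23358 entries. All 10 passed the filter on low counts, which left 16280 genes for the tests. On the build mm10 the table places Tgfb2 at chr1:186623186-186705992, Tgfbr1 at chr4:47353305-47414924, Tgfbr3 at chr5:107106570-107289595, Tgfb1 at chr7:25687002-25704996 and Tgfbr2 at chr9:116087695-116175363. Ltbp2 (chr12:84783212-84876495) and Tgfb3 (chr12:86056743-86079041) share a chromosome, as do Inhba (chr13:16014475-16027211) and Tgfbi (chr13:56609603-56639339), and Ltbp1 is at chr17:75005529-75392967.

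RNA was sequenced from immature mouse chondrocytes, the cells of young cartilage, of a C57BL/6 - mix strain at post-natal day 5. The cells came from the tibial plateau, the femoral condyles and the femoral head, were kept in medium with 2% serum, and were differentiated as micromasses, which are dense drops of cells. All groups received an insulin, transferrin and selenium supplement, 10 mM β-glycerol phosphate and 0.05 mg/mL ascorbic acid. The 2 genotypes were wildtype and Ezh2-deficient, titled Ezh2_cKO, and each gave 1 library at day 3, day 7 and day 14 of differentiation. Ezh2 encodes a Polycomb histone methyltransferase, known for silencing genes through a mark on histone H3. The sources used here do not give the Cre driver, the deleted part of Ezh2 or the number of animals behind a library. P-values therefore measure only the spread between these 6 libraries, which may be technical. In the fits of day and genotype, that spread also holds any genotype difference that changes between days.

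TGF-β ligands are secreted as latent complexes, held by their propeptide and, for the large complex, bound through latent TGF-β binding proteins to the extracellular matrix, from which integrins and proteases release them. The active ligand binds the type II receptor Tgfbr2, which phosphorylates the type I receptor Tgfbr1, and Smad2 and Smad3 carry the signal to the nucleus. In cartilage the pathway is known for promoting early chondrogenesis and for holding back hypertrophy, the last step of chondrocyte maturation.

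The sequences just upstream of 4 of these genes are shown because their levels moved with day, Tgfb1, Inhba and Ltbp2 upward and Tgfbi downward. Of the 10 genes, 8 had at least 1 window in the RefSeq promoter set (build GRCm38.p6), and Tgfb3 and Tgfbr3 had no entry. Each run below is the 250 bases 5′ of the RefSeq start, on the strand of the gene, with matches to 2 motifs in capitals: TATAAA, the core of the TATA box, and GGGCGG, the GC box bound by Sp1-type factors. Both strands were searched, so a GC box can also read CCGCCC. The windows are chr7:25686752-25687001 (+) for Tgfb1, chr13:16011601-16011850 (+) for Inhba, chr12:84876492-84876741 (-) for Ltbp2 and chr13:56609336-56609585 (+) for Tgfbi.
Tgfb1: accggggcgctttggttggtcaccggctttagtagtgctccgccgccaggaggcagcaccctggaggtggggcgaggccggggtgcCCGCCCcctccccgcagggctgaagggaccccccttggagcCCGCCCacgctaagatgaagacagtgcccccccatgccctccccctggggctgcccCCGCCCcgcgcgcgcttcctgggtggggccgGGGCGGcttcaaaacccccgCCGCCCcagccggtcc
Inhba: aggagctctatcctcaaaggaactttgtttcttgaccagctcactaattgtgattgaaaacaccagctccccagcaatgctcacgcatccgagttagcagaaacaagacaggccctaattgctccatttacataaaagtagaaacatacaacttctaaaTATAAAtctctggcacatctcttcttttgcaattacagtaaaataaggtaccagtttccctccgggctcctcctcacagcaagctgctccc
Ltbp2: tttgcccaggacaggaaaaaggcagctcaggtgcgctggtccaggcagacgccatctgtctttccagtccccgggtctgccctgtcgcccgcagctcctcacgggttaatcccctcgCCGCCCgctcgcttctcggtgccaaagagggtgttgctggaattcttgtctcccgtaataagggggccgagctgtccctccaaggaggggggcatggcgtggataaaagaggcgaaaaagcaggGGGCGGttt
Tgfbi: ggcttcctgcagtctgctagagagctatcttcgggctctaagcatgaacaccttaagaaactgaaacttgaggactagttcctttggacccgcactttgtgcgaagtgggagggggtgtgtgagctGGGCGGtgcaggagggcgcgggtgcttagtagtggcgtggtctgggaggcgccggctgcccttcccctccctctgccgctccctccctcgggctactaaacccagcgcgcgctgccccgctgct
The Tgfb1 window held 5 GC boxes, whose first bases lay 164, 123, 67, 36 and 16 bases before the start, and 21 CpG dinucleotides at 75.2% GC. The Inhba window was its opposite in composition, with 3 CpG, 43.2% GC, no GC box and a TATA box 91 bases before the start. The RefSeq start of Inhba lies 2624 bases before the start of its row in the table. Ltbp2 had 16 CpG with GC boxes 133 and 9 bases before the start, and Tgfbi had 15 CpG with a GC box 124 bases before it. Over all 32851 windows of this length, 32.7% held a GC box, 12.4% held TATAAA, and the median number of CpG was 6 (quartiles 2 and 16).

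In the other windows, Tgfb2 had a TATA box 31 bases before its start, and 8 CpG. Tgfbr1 had 2 windows, the upstream of which held 29 CpG and 2 GC boxes. The window of Tgfbr2 and that at the start of the long form of Ltbp1 held 12 CpG each and none of the motifs searched. Ltbp1 had a further RefSeq start 173252 bases downstream, whose window carried 2 copies of CAGACA, a form of the CAGA element bound by Smad3 and Smad4. That element was also in the windows of Tgfb2 and of the downstream start of Tgfbr1, 1 copy each, and in 17.1% of all windows. The deposited table gives Ltbp1 a single row, so reads of the long and the short form were added together. The AP-1 element TGACTCA, found in 4.46% of all windows, was in none of the members' windows. These matches are descriptions of letters; no binding or chromatin was measured here.

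The table's counts summed to between 51985214 and 79323302 per library. Every count was even, so a fragment is taken as 2 counts, and 3 fragments, the limit that a count of 0 allows, stood for 0.0763 to 0.114 counts per 1000000 counts (CPM). CPM were scaled with TMM, edgeR's factors for differences in composition. Ezh2, the targeted gene, was at 24.7 CPM in wildtype and 14.7 in Ezh2-deficient cells at day 3, at 40.2 and 23.0 at day 7, and at 27.9 and 17.6 at day 14. It was lower in the Ezh2-deficient library of every day, but the difference across days missed the threshold (log2 -0.74 ± 0.08 (SE), edgeR adjusted p = 0.0729).

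The cell type of the labels was checked with marker lists. All 12 chondrocyte markers were detected in every library, and their summed level was 146600 CPM in wildtype and 142000 in Ezh2-deficient cells at day 3. It was 81970 and 57790 at day 7 and ended at 40370 and 26060 at day 14. Markers of other cells moved the other way over the same days. The 8 fibroblast markers summed to 2994 and 4350 CPM at day 3 and to 69990 and 122600 at day 14, the 8 osteoblast markers to 861 and 1403 and then to 44550 and 95940, and the 7 macrophage markers to 141 and 106 and then to 1976 and 2741. Col1a1 is in both the fibroblast and the osteoblast list. At day 14 it was at 34580 and 62980 CPM and Col1a2 at 26760 and 52320, so these collagen genes made up most of the fibroblast sum. Col1a1 alone made up most of the osteoblast sum of that day. Of the remaining fibroblast markers at day 14, Col3a1, Dcn and Thy1 were lower and Pdgfra, Postn and Twist2 higher in the Ezh2-deficient library. Lyz2 made up most of the macrophage sum of that day (1149 and 1804 CPM). Of the other macrophage markers, Cd68 and Mrc1 were lower in that library, Emr1 was level (186 and 187), and Csf1r, Cd14 and C1qa were higher. Each macrophage marker was higher at day 14 than at day 3 in both genotypes. The 4 hypertrophic markers summed to 853 and 1043 CPM at day 3 and to 8667 and 4261 at day 14. Col10a1 made up most of the wildtype sum at day 14 (6134 CPM, against 1815 in Ezh2-deficient cells). Mmp13 and Ihh were also lower in the Ezh2-deficient library of that day, and Panx3 was higher (668 and 1008). The 5 endothelial markers summed to between 2.31 and 6.50 CPM, with Tie1 at 0 in the Ezh2-deficient library of day 14, and no other marker was at 0. From day 3 to day 14 Kdr and Tek went up and Pecam1 and Tie1 down in both genotypes, and Cdh5 differed between them. The 5 adipocyte markers summed to 103 and 221 CPM at day 3, to 578 and 901 at day 7 and to 345 and 452 at day 14. The part of these cells in the results on day was not tested, and in RNA from whole cultures fewer cells of a type and less RNA per cell cannot be told apart.

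Of the 10 genes, 9 passed in at least 1 comparison of days, all but Tgfb2. The share of all genes that did so was not computed, and day 14 against day 3 alone called 7414 of 16280. From day 3 to day 14, 5 of the 10 rose (Tgfb1, Tgfb3, Inhba, Ltbp1 and Ltbp2), Tgfbi fell, and 4 did not pass (edgeR, adjusted p under 0.05). Of all genes tested, 23.2% rose and 22.4% fell in that comparison. From day 3 to day 7, 7 rose and 2 fell, against 19.5% and 16.6% of all genes, and from day 7 to day 14, 4 rose and 1 fell, against 3.38% and 2.29%. The median difference of the 10 genes was 0.81 at log2 from day 3 to day 7, 0.42 from day 7 to day 14 and 0.59 from day 3 to day 14, where the medians of all genes were -0.02, -0.01 and -0.02. These 3 comparisons share libraries, and the 2 genotypes stand in for replicates of a day.

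**Figure D1:**
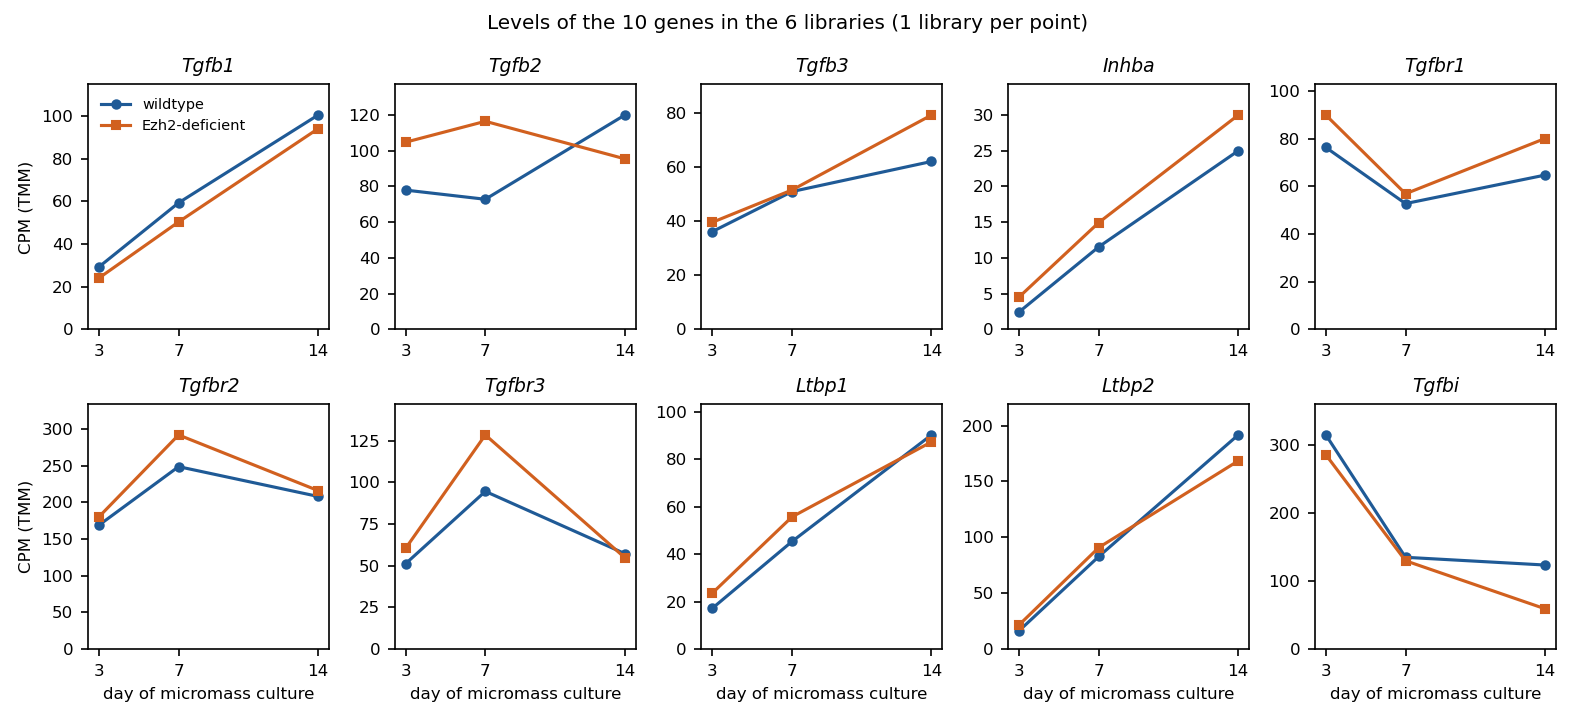
Level of each of the 10 genes (TMM-scaled CPM, vertical axis from 0) against day of micromass culture, with circles for wildtype and squares for Ezh2-deficient; each point is 1 library. Tgfb1, Inhba, Ltbp1 and Ltbp2 climb at each step in both genotypes, Tgfbr2 and Tgfbr3 are highest at day 7, Tgfbi descends, and the lines of Tgfb2 cross between day 7 and day 14.

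Among the ligands, Tgfb1 encodes the most widely expressed of the TGF-β isoforms. It was at 29.2 CPM in wildtype and 24.0 in Ezh2-deficient cells at day 3, at 59.3 and 50.4 at day 7, and at 100.5 and 94.1 at day 14. Both genotypes were higher at each later day, and the Ezh2-deficient library was the lower on each day. Tgfb1 rose by 1.04 ± 0.09 (log2, SE) from day 3 to day 7 (edgeR adjusted p = 0.00117) and by 0.83 ± 0.09 from day 7 to day 14 (adjusted p = 0.0116). Over the whole course it was 3.67-fold higher at day 14 (log2 1.88 ± 0.09, adjusted p = 0.000178).

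Tgfb3, an isoform known for its part in palate fusion and for inducing cartilage formation by stem cells in culture, was at 36.2 and 39.6 CPM at day 3 (wildtype, then Ezh2-deficient), at 51.0 and 51.6 at day 7, and at 62.2 and 79.3 at day 14. It was higher at each later day in both genotypes. The day 14 level was 1.86-fold that of day 3 (log2 0.89 ± 0.11, edgeR adjusted p = 0.0021). The step from day 3 to day 7 passed (0.44 ± 0.11, adjusted p = 0.0273), and that from day 7 to day 14 did not (0.45 ± 0.11, adjusted p = 0.0748; 0.0294 with DESeq2 and 0.042 without the day 3 pair). Tgfb3 overlaps Ttll5 on the opposite strand, which had between 1012 and 1880 counts per library, and whether counting used strand is not stated, so reads in the overlap cannot be told apart.

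Tgfb2 was at 77.9 CPM in wildtype and 104.7 in Ezh2-deficient cells at day 3, at 72.8 and 116.4 at day 7, and at 119.9 and 95.4 at day 14. The wildtype library was highest at day 14 and the Ezh2-deficient one at day 7, so the genotypes changed places. No day comparison passed for Tgfb2; the difference from day 3 to day 14 was 0.27 ± 0.24 at log2 (edgeR adjusted p = 0.392).

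Inhba encodes the subunit that dimerizes to activin A, a ligand that signals through activin receptors to the same Smads. It was at 2.43 and 4.52 CPM at day 3, at 11.5 and 14.9 at day 7, and at 25.0 and 30.0 at day 14. The counts behind the day 3 values were 160 and 336, the lowest of any of the 10 genes. Inhba rose 8.16-fold from day 3 to day 14 (log2 3.03 ± 0.20, edgeR adjusted p = 0.000322), by 1.97 ± 0.19 to day 7 (adjusted p = 0.00167) and by 1.06 ± 0.18 from there (adjusted p = 0.0338). The last step was lost when libraries were scaled by total counts only (adjusted p = 0.0567). Inhba shares its locus with the opposite-strand loci B230303A05Rik and Gm48444.

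Each receptor gene had its highest or its lowest libraries at day 7. Tgfbr2, the type II receptor, was at 169 CPM in wildtype and 180 in Ezh2-deficient cells at day 3, at 249 and 292 at day 7, and at 208 and 216 at day 14. It rose by 0.63 ± 0.09 at log2 from day 3 to day 7 (edgeR adjusted p = 0.00631). The later difference, -0.35 ± 0.09 from day 7 to day 14, did not pass (adjusted p = 0.104), although the level was lower at day 14 in both genotypes. From day 3 to day 14 the difference was 0.28 ± 0.09 (adjusted p = 0.0567), which passed with DESeq2 (0.0459) and limma-voom (0.0415).

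Tgfbr3 encodes betaglycan, a coreceptor that presents ligand to Tgfbr2 and is needed for strong binding of the Tgfb2 product. It was at 51.2 and 60.4 CPM at day 3, reached 94.5 and 128 at day 7, and was back at 57.3 and 54.9 at day 14. The day 7 libraries stood above all 4 others. Tgfbr3 rose by 0.99 ± 0.13 to day 7 (edgeR adjusted p = 0.00448) and fell by 0.97 from day 7 to day 14 (SE 0.13, adjusted p = 0.0194). Day 14 against day 3 did not pass (0.02 ± 0.13, adjusted p = 0.928).

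Tgfbr1, the type I receptor kinase, went the other way at the first step. It was at 76.3 and 89.8 CPM at day 3, at 52.7 and 56.8 at day 7, and at 64.7 and 80.0 at day 14. The lowest libraries were those of day 7, and it fell by 0.60 from day 3 to day 7 (SE 0.09, edgeR adjusted p = 0.00589). The difference from day 7 to day 14 was 0.39 ± 0.09 (adjusted p = 0.0669; 0.0299 with DESeq2 and 0.0432 without the day 3 pair). Day 14 against day 3 did not pass (-0.20 ± 0.09, adjusted p = 0.113).

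Ltbp1 and Ltbp2 both rose at each step. Ltbp1 encodes a protein that links the latent TGF-β complex to fibrillin and fibronectin in the matrix. Ltbp1 was at 17.2 CPM in wildtype and 23.6 in Ezh2-deficient cells at day 3, at 45.3 and 55.7 at day 7, and at 90.2 and 87.2 at day 14. It rose 4.41-fold from day 3 to day 14 (log2 2.14 ± 0.14, edgeR adjusted p = 0.000331). The step to day 7 was 1.31 ± 0.14 (adjusted p = 0.00217), and the step from day 7 was 0.83 ± 0.13 (adjusted p = 0.0312), which was lost with scaling by total counts only (0.0686).

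Ltbp2 belongs to the same family but is not known to bind latent TGF-β; its protein binds fibrillin in elastic microfibrils. It was at 16.4 and 21.7 CPM at day 3, reached 82.8 and 90.9 at day 7, and ended at 192 and 168 at day 14. The order of the genotypes turned at day 14, while the days stayed far apart. Ltbp2 rose 9.52-fold from day 3 to day 14, the largest change among the 10 genes (log2 3.25 ± 0.16, edgeR adjusted p = 0.000179), by 2.19 ± 0.15 to day 7 (adjusted p = 0.000692) and by 1.06 ± 0.15 from there (adjusted p = 0.0203). The antisense gene D030025P21Rik overlaps it and had 8 to 66 counts per library.

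Tgfbi, whose protein sits in the matrix and binds integrins and collagens, was the only member to fall from day 3 to day 14. It was at 315 CPM in wildtype and 286 in Ezh2-deficient cells at day 3, at 135 and 130 at day 7, and at 124 and 59.4 at day 14. The day 3 libraries were the highest of all 6, and the Ezh2-deficient library of day 14 was the lowest. Tgfbi was 3.43-fold lower at day 14 than at day 3 (log2 -1.78 ± 0.26, edgeR adjusted p = 0.00401). In this fit of both genotypes, most of the fall lay between day 3 and day 7 (-1.18 ± 0.25, adjusted p = 0.0188). The step from day 7 to day 14 did not pass (-0.60 ± 0.25, adjusted p = 0.231). In that step the single libraries gave 0.916 times the day 7 level in wildtype cells and 0.457 times in Ezh2-deficient cells. From day 3 to day 7 they gave 0.429 and 0.455 times, so the 2 steps were alike in Ezh2-deficient cells.

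**Figure D2:**
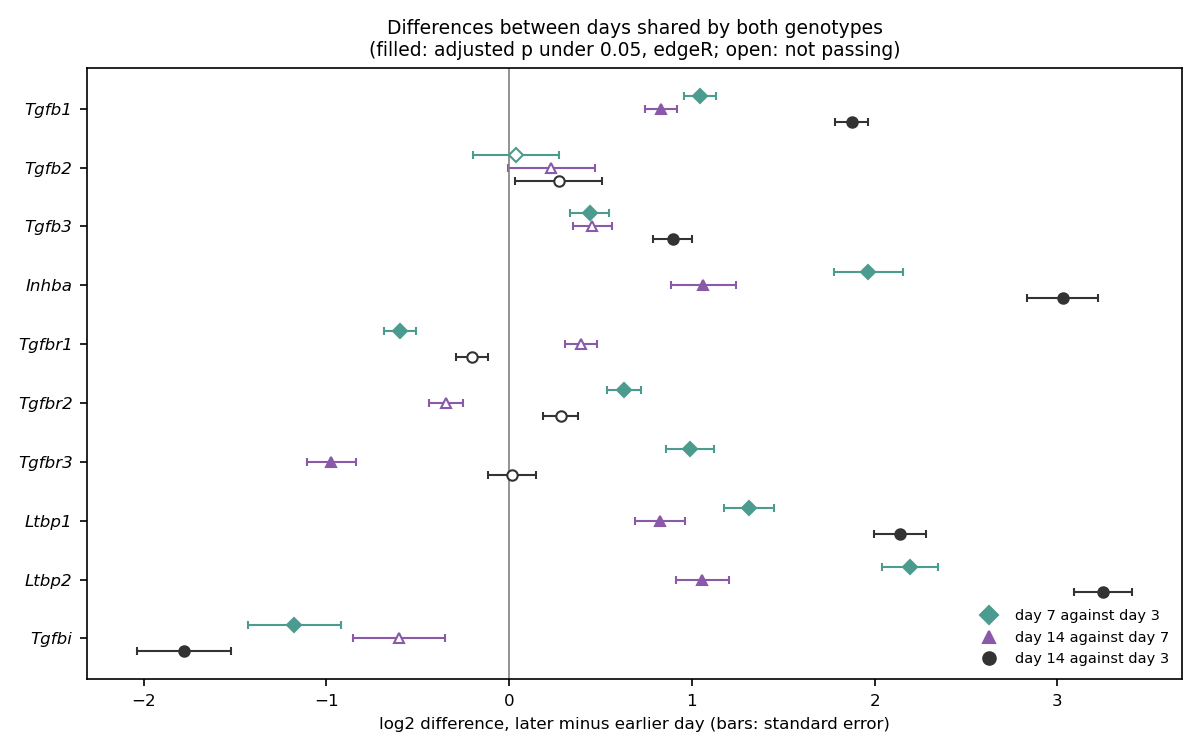
Log2 difference between days for each of the 10 genes (horizontal axis, later minus earlier day, edgeR fit on all 6 libraries), with bars of 1 standard error and filled symbols for an adjusted p under 0.05. Inhba, Ltbp1, Ltbp2 and Tgfb1 pass in all 3 comparisons, and the symbols of Tgfbr3 lie on opposite sides of 0 for the steps before and after day 7.

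Levels can be set between genes only per length, for which the authors' RPKM (reads per kilobase of the length that the table calls coding, scaled to the library total) were used. Of these lengths, 37.8% are multiples of 3, so they are not lengths of coding sequence alone. At day 3, Tgfbi was the highest of the 10 at 91.1 RPKM in wildtype and 81.2 in Ezh2-deficient cells, followed by Tgfbr2 at 27.3 and 28.6 and Tgfb2 at 12.8 and 16.9. Ltbp2, Ltbp1 and Inhba were the lowest at day 3, between 1.23 and 2.50 RPKM in both genotypes. By day 14, Tgfb1 was at 39.2 and 34.5 RPKM and Ltbp2 at 23.7 and 19.6.

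The order was thus rearranged over the 3 days. In wildtype cells of day 14, Tgfb1 (39.2), Tgfbi (37.7) and Tgfbr2 (35.5) lay close together at the top, and these 3 genes changed places with each other between days. In Ezh2-deficient cells of that day, Tgfbr2 (34.6) and Tgfb1 (34.5) led, and Tgfbi was the fifth at 17.0 RPKM. Among the TGF-β isoforms, Tgfb2 was the highest at day 3 in both genotypes (12.8 and 16.9, against 10.8 and 8.73 for Tgfb1 and 8.28 and 8.91 for Tgfb3), and Tgfb1 was the highest at day 14 (39.2 and 34.5, against 20.7 and 15.5 for Tgfb2 and 15.0 and 18.0 for Tgfb3). At day 7, Tgfb1 (24.7) stood above Tgfb2 (13.4) in wildtype cells, while in Ezh2-deficient cells they were within a small distance (21.1 and 21.7). Of the receptors, Tgfbr2 was the highest in every library. With 1 library per genotype and day, these positions have no replicate spread, and neighbours that changed places between libraries were not separated.

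**Figure D3:**
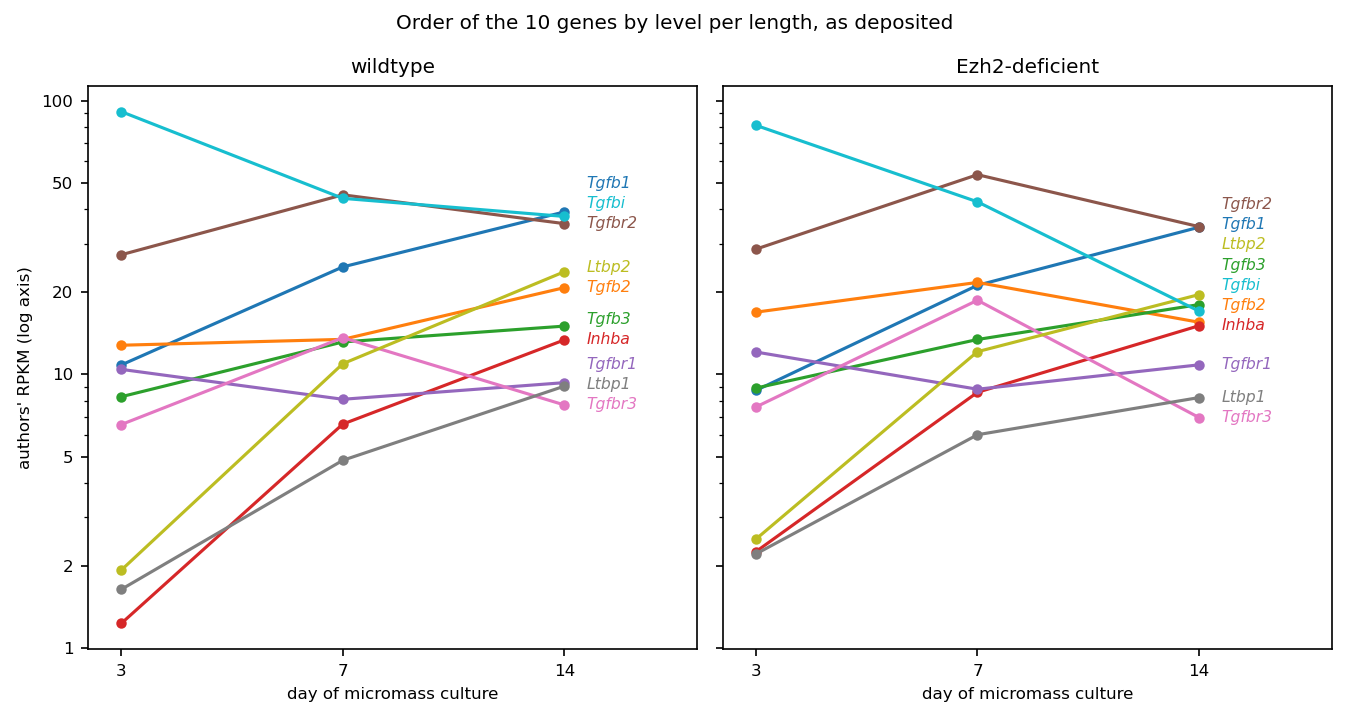
Authors' RPKM of the 10 genes (vertical axis, log scale) against day of culture, wildtype on the left and Ezh2-deficient on the right, 1 library per point. Tgfbi starts highest at 91.1 and 81.2 RPKM, Tgfb1 and Ltbp2 move up the order, and Tgfbr3 ends lowest at 7.73 and 6.95.

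Between the genotypes, none of the 10 genes passed the test across days (edgeR, with 3 of them at an unadjusted p under 0.05; 0 also by DESeq2 and by limma-voom). Of all 16280 genes, 2 passed, which is 0.0123%, while 2142 had an unadjusted p under 0.05. The median of the 10 log2 differences was 0.19, where that of all genes was -0.0018. Nor did any of the 10 pass for a change of the genotype difference with day (edgeR, with 4 at an unadjusted p under 0.05; 0 also by DESeq2 and by limma-voom), where 0.614% of all genes passed and 2167 of 16280 had an unadjusted p under 0.05. The 3 days stand in for replicates of the genotype difference, which leaves 2 residual degrees of freedom, and 1 for its change with day.

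The sign of the difference was the same on all 3 days for 6 of the 10 genes, against 36.3% of all genes tested. Tgfb1 and Tgfbi were lower in the Ezh2-deficient library every day, and Tgfb3, Tgfbr1, Tgfbr2 and Inhba were higher every day. At day 7 the counting intervals of Tgfb3 and Tgfbi included 1, so their signs that day were within counting error. The sign of Tgfbr2 at day 14 rested on the scaling: its log2 ratio there was 0.05, and -0.03 with scaling by total counts only. Tgfb2, Tgfbr3, Ltbp1 and Ltbp2 were higher at day 3 and day 7 and lower at day 14, where the counting intervals of Tgfbr3 and Ltbp1 included 1.

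For single days only the ratio of 2 libraries can be given, with an exact 95% interval that covers counting error only. At least a 2-fold difference was counted as apart where the interval excluded 1. None of the 10 genes was apart at day 3 or at day 7, where 2.02% and 3.56% of all genes were, and 1, Tgfbi, was apart at day 14, where 4.99% were. Tgfbi at day 14 was 2.08-fold lower in the Ezh2-deficient library (124 against 59.4 CPM; interval 1.96 to 2.21), after 1.10-fold (1.07 to 1.13) at day 3 and 1.04-fold (0.999 to 1.08) at day 7. Its fitted difference across days was -0.41 ± 0.21 at log2 (edgeR adjusted p = 0.458; -0.09 without the day 14 pair), and the change of that difference per doubling of day was -0.39 ± 0.15 (adjusted p = 0.342). The summed chondrocyte markers were also lower in that library than in wildtype at day 14 (26060 against 40370 CPM) and the summed osteoblast markers higher (95940 against 44550), and their part in the Tgfbi value was not tested.

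Inhba had the largest ratio at day 3, 1.86 (interval 1.42 to 2.46), followed by 1.29 (1.14 to 1.47) at day 7 and 1.20 (1.08 to 1.33) at day 14. The Ezh2-deficient library was thus the higher each day, by a smaller factor on each later day, although the intervals of neighbouring days overlapped. The fit gave 0.49 ± 0.15 at log2 (edgeR adjusted p = 0.285), and -0.28 ± 0.11 per doubling of day (adjusted p = 0.355). Within each genotype Inhba at day 14 was 10.3 times its day 3 level in wildtype cells and 6.64 times in Ezh2-deficient cells.

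Ltbp1 and Ltbp2 both started higher in Ezh2-deficient cells. The Ltbp1 ratio was 1.37 (interval 1.23 to 1.53) at day 3, 1.23 (1.15 to 1.31) at day 7 and 0.968 (0.914 to 1.02) at day 14. The Ltbp2 ratio was 1.32 (1.18 to 1.48), 1.10 (1.04 to 1.15) and 0.879 (0.844 to 0.915) on the same days. From day 3 to day 14 Ltbp2 went up 11.7-fold in wildtype cells and 7.76-fold in Ezh2-deficient cells, and Ltbp1 went up 5.24-fold and 3.70-fold. The change of the genotype difference per doubling of day was -0.26 ± 0.07 for Ltbp2 and -0.22 ± 0.07 for Ltbp1, and neither passed (edgeR adjusted p = 0.188 and 0.278).

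Tgfb2 had the widest swing among the ligands. Its ratio was 1.34 (interval 1.28 to 1.41) at day 3, 1.60 (1.52 to 1.68) at day 7 and 0.796 (0.755 to 0.839) at day 14. Tgfbr3 followed the same course with ratios of 1.18 (1.11 to 1.26), 1.36 (1.30 to 1.42) and 0.958 (0.891 to 1.03). The fitted differences across days did not pass for Tgfb2 (0.26 ± 0.19 at log2, edgeR adjusted p = 0.608; 0.05 with day 7 left out, 0.56 with day 14 left out) or for Tgfbr3 (0.21 ± 0.11, adjusted p = 0.471). Neither did their changes with day (adjusted p = 0.462 and 0.667).

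For Tgfb1, Tgfb3, Tgfbr1 and Tgfbr2 the single-day ratios lay between 0.822 and 1.28. Over day 3, day 7 and day 14 the Tgfb1 ratio was 0.822, 0.849 and 0.936 (log2 -0.20 ± 0.07 across days, edgeR adjusted p = 0.332). The Tgfb3 ratio was 1.10, 1.01 and 1.28 (0.17 ± 0.09, adjusted p = 0.475). For the receptors, Tgfbr1 gave 1.18, 1.08 and 1.24 (0.22 ± 0.07, adjusted p = 0.313), and Tgfbr2 gave 1.07, 1.17 and 1.04 (0.13 ± 0.08, adjusted p = 0.530). The counting intervals of these 12 ratios excluded 1 except for Tgfb3 at day 7, which says that the paired libraries differed by more than counting error and not that the genotypes did.

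**Figure D4:**
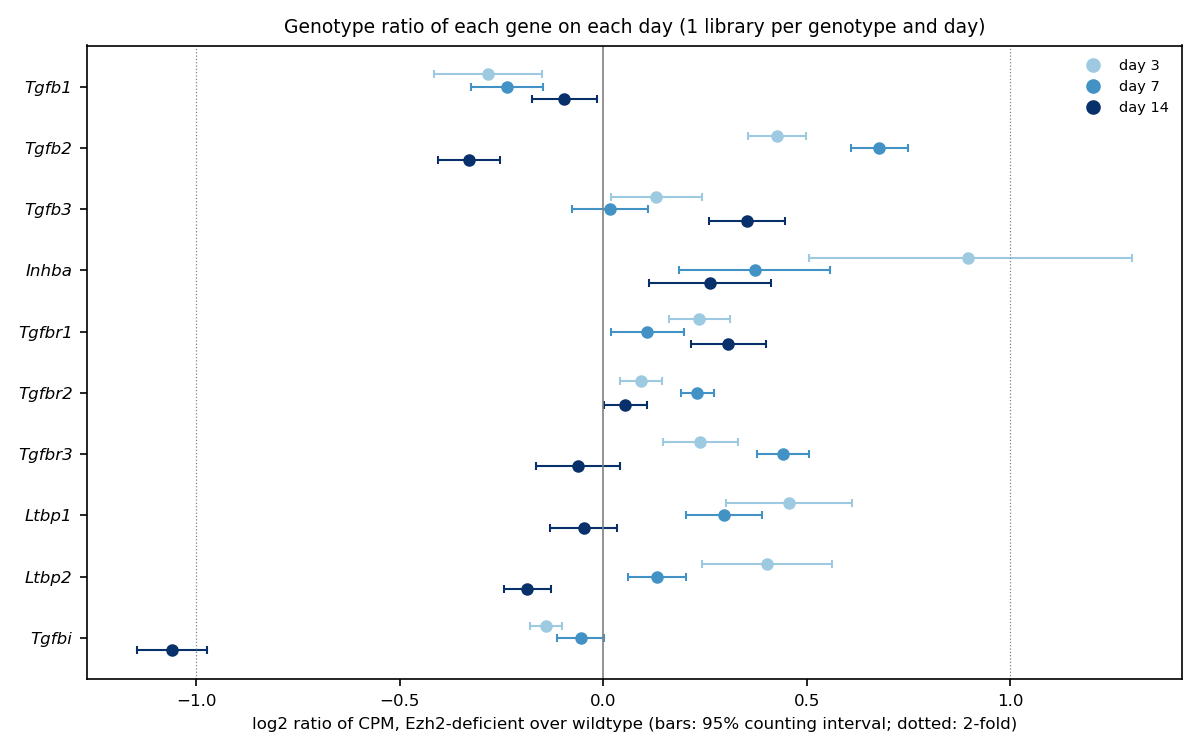
Log2 ratio of CPM, Ezh2-deficient over wildtype, for each gene at day 3, day 7 and day 14 (light to dark), 1 library per genotype and day; bars are 95% counting intervals and dotted lines mark 2-fold. Tgfbi at day 14 is the only point beyond 2-fold, and the points of Tgfb2, Tgfbr3, Ltbp1 and Ltbp2 lie to the right at day 3 and day 7 and to the left at day 14.

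The rest of the pathway was read through 5 lists of genes. These lists were chosen with earlier results of these data known, so their counts beside the shares of all genes are descriptions. The list of latency and activation holds the remaining latent binders, fibrillins, integrins, proteases and furin-type convertases. Of its 20 genes, 12 rose and 2 fell from day 3 to day 14 (median log2 0.65), and 10 rose and 2 fell already by day 7. Of all genes, 23.2% rose and 22.4% fell to day 14, and 19.5% and 16.6% to day 7. With scaling by total counts only, 12 rose and 1 fell. Mmp14, a membrane-bound collagenase that can activate latent TGF-β, rose by 1.91 ± 0.14 (edgeR adjusted p = 0.000481), from 129 and 111 CPM at day 3 to 533 and 375 at day 14. Itgav, the alpha subunit of the integrins that release active ligand, rose by 1.28 ± 0.09 (adjusted p = 0.000445), from 111 and 105 CPM to 286 and 241. Pcsk6, a convertase that cleaves propeptides, rose by 1.40 ± 0.14 (adjusted p = 0.00116) from 141 and 196 CPM to 345 and 553.

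Lrrc33, which tethers latent TGF-β on macrophages and microglia, rose by 3.39 ± 0.16 (edgeR adjusted p = 0.000176), from 2.55 and 2.69 CPM at day 3 to 25.7 and 29.3 at day 14. The 7 macrophage markers went from 141 and 106 CPM to 1976 and 2741 in sum over the same days, and their part in the Lrrc33 value was not tested. Ltbp3 and Ltbp4, the other latent binders, did not pass (-0.0011 and -0.13 at log2, adjusted p = 0.994 and 0.602), at 147 to 183 CPM for Ltbp3 and 7.12 to 13.1 for Ltbp4 over the 6 libraries.

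Of the activin and other ligands and receptors, 17 were in the table and 12 could be tested; 3 rose and 1 fell from day 3 to day 14 (median 0.44), a share of risers near the 23.2% of all genes. Acvrl1, a type I receptor best known in vessels, rose by 2.66 ± 0.15 (edgeR adjusted p = 0.000208), from 2.31 CPM in each genotype to 15.2 and 14.1. Its coreceptor gene Eng, endoglin, rose by 0.85 ± 0.09 (adjusted p = 0.0013), from 20.02 and 26.2 CPM to 35.5 and 48.1. The summed endothelial markers were at 2.97 and 2.31 CPM at day 3 and at 5.74 and 3.98 at day 14, when most of the sum was Kdr (4.37 and 2.56). Gdf11, a ligand close to myostatin, rose from 1.85 and 2.10 CPM to 6.42 and 8.43 (adjusted p = 0.00122), and Inhbe, a further inhibin beta subunit gene, fell by 3.42 (SE 0.63, adjusted p = 0.00852) from 3.34 and 2.66 CPM to 0.114 and 0.511. The 0.114 CPM of Inhbe in the wildtype library of day 14 is the level of 3 fragments, so that fold is uncertain.

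Of the 10 extracellular inhibitors and binders, 8 rose and none fell from day 3 to day 14 (median 1.69), where 23.2% of all genes rose and 22.4% fell. Aspn, asporin, a small proteoglycan that binds TGF-β, rose by 3.58 ± 0.15 (edgeR adjusted p = 0.000159), from 17.6 and 36.0 CPM at day 3 to 236 and 384 at day 14. Fst, follistatin, which neutralizes activins, rose by 1.99 ± 0.23 (adjusted p = 0.00195), from 11.2 and 21.8 CPM to 62.9 and 61.8. Inhba, whose product follistatin binds, rose over the same days. Bgn, biglycan, rose by 1.80 ± 0.20 (adjusted p = 0.00153), and Vasn, a membrane protein that traps TGF-β, by 1.33 ± 0.17 (adjusted p = 0.00262).

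Among the Smads and their regulators, 7 of 16 rose and 2 fell from day 3 to day 14 (median 0.30), against 23.2% and 22.4% of all genes; with scaling by total counts only, 8 rose and 1 fell. Smad3, which the activated receptor phosphorylates, rose by 1.08 ± 0.10 (edgeR adjusted p = 0.00093), from 42.8 and 50.1 CPM at day 3 to 97.1 and 98.7 at day 14. Smad2, the other Smad of this kind, fell by 0.29 (adjusted p = 0.0305), from 68.7 and 69.9 CPM to 55.0 and 58.4; it was named after its values were seen. Zfyve9, the anchor that brings Smad2 and Smad3 to the receptor, fell by 0.69 (SE 0.14, adjusted p = 0.0126). Skil and Pmepa1, feedback inhibitors that TGF-β induces, rose by 2.05 ± 0.09 (adjusted p = 0.000163) and 2.17 ± 0.17 (adjusted p = 0.000529). Skil stood at 24.4 CPM in each genotype at day 3 and at 98.3 and 103 at day 14.

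Of 22 genes known as transcriptional targets of the pathway, 17 rose and none fell from day 3 to day 14 (median 1.82), where 23.2% of all genes rose. With DESeq2, 18 rose and 1 fell. From day 7 to day 14, 9 rose, where 3.38% of all genes did. Postn, a matrix protein gene, rose by 3.70 ± 0.17 (edgeR adjusted p = 0.000163), Adam12, a membrane protease gene, by 2.55 ± 0.10 (adjusted p = 0.000153), and Timp1, a metalloprotease inhibitor gene, by 2.29 ± 0.11 (adjusted p = 0.000177). Skil, Pmepa1 and Smad7 are in this list and in that of the Smads. Col1a1, Col1a2, Col3a1, Postn, Acta2 and Tagln are also markers of fibroblasts, osteoblasts or smooth muscle, so this count and the marker sums given above rest in part on shared genes. The target gene Tgfbi is not in this list; it fell while 17 of these genes rose.

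**Figure D5:**
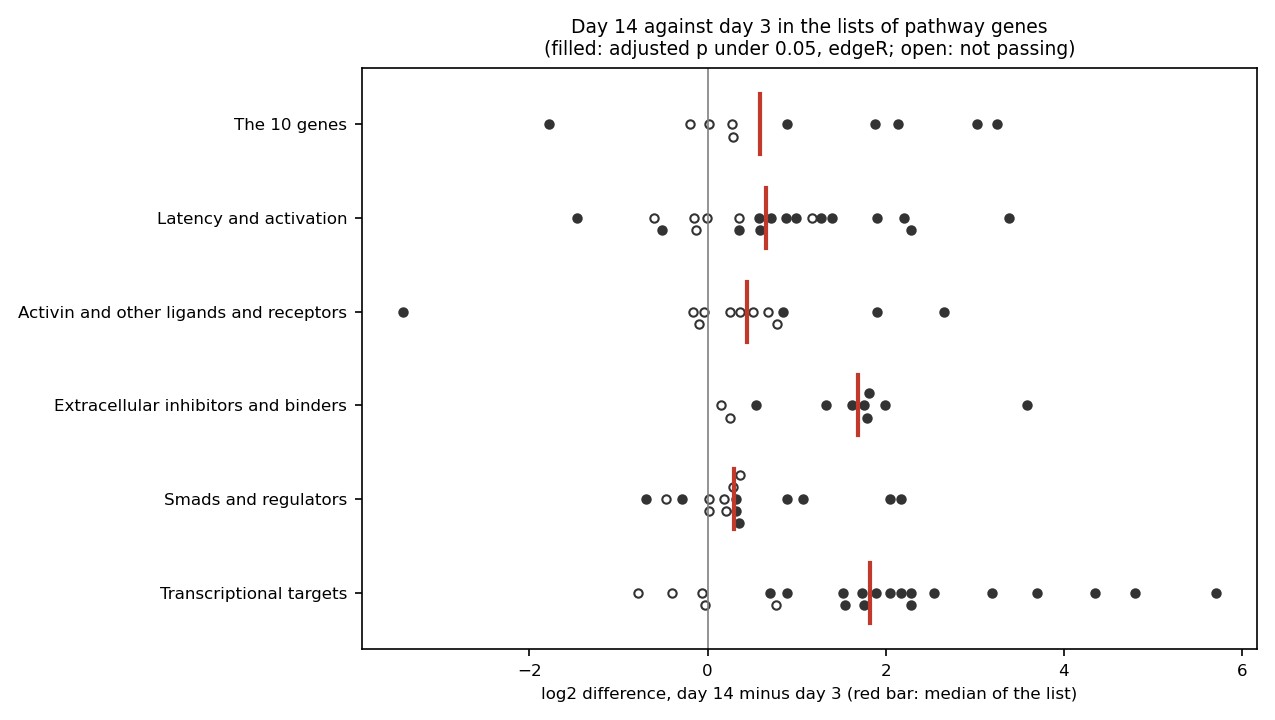
Log2 difference, day 14 minus day 3, of the 10 genes and of each tested gene in the 5 pathway lists (edgeR fit on all 6 libraries; filled, adjusted p under 0.05; open, not passing; red bar, median of the list). The medians of the extracellular inhibitors and of the transcriptional targets, 1.69 and 1.82, lie above that of the 10 genes, 0.59.

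Between the genotypes, edgeR called no gene of the 5 lists across days. Its unadjusted p was under 0.05 for 2 of 20 latency genes and 4 of 12 activin and other ligands and receptors. The same held for 4 of 10 inhibitors, 1 of 16 Smads and regulators and 7 of 22 targets, against 2142 of all 16280 genes. DESeq2, which called 602 of all 16280 genes where edgeR called 2, called 7 genes of the lists: Pcsk6, Eng, Aspn, Postn and Itga11 as higher and Tgm2 and Fmod as lower in Ezh2-deficient cells. Limma-voom called Itga11 (adjusted p = 0.0466), a collagen-binding integrin gene that edgeR put at 1.00 (log2, adjusted p = 0.0674). Aspn was at 17.6 and 36.0 CPM at day 3, at 231 and 520 at day 7 and at 236 and 384 at day 14, so the Ezh2-deficient library was the higher on each day (log2 0.97, edgeR adjusted p = 0.0798). These 7 genes were named after their values were seen.

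For the change of the genotype difference with day, 2 of the 22 target genes passed and both went down. Of all genes 0.614% passed, and 90 of these 100 went down, so the direction is not particular to the targets. Ctgf, a secreted matrix regulator, was at 591 and 653 CPM at day 3, at 799 and 521 at day 7, and at 548 and 242 at day 14, a change of -0.60 ± 0.08 per doubling of day (edgeR adjusted p = 0.049). At day 14 the Ezh2-deficient library was the lower for Ctgf, as it was for Tgfbi. Of the targets Postn, Adam12 and Timp1, only Timp1 was also lower there, and Postn and Adam12 were higher. Tagln, an actin-binding protein of contractile cells, was at 17.1 and 38.0 CPM, at 88.2 and 125, and at 75.9 and 73.2, a change of -0.54 ± 0.07 (adjusted p = 0.046). Both calls were lost with a filter of at least 1 CPM (adjusted p = 0.0917) and with counts halved to fragments (0.0562 and 0.0522), and that of Tagln also with limma-voom (0.0504). The number of target genes called went from 2 to 3 with RLE factors, 4 with total counts only and 5 with DESeq2, all downward. Most calls over all genes were downward too (117 of 130, 250 of 270 and 263 of 320 in these settings). The 5 smooth muscle markers, Tagln among them, summed to 60.4 and 170 CPM at day 3, to 290 and 416 at day 7 and to 202 and 214 at day 14. Acta2 (123 and 133 CPM at day 14) and Tagln made up nearly all of that sum, so it is not separate from Tagln. Myh11, below 1 CPM, was lower at day 14 than at day 3 in both genotypes, and Cnn1 and Des were higher. Ctgf and Tagln were named after their values were seen.

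The genes whose log2 CPM followed the TGF-β isoforms most closely over the 6 libraries were sought among 12140 genes. For Tgfb1 they were Hpse, the heparanase gene, and Msn, moesin, with Pearson r of 0.998 and 0.997. For Tgfb3 they were Tmem184b and Lyst, each with r of 0.998, and for Tgfb2 they were Rabgap1 and Arhgef12, with r of 0.958 and 0.957. These are the extremes of many comparisons over 6 libraries that share days, and are given as a description.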

How the data were processed

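RNA-seq libraries of wildtype and Ezh2-deficient chondrocytes were used as deposited: whole-number counts per gene made by the authors, and the authors' RPKM, which scale these counts by the table's column of coding lengths and library total per the file headers. CASAVA 1.9, TopHat 12.0.6, HTSeq and the build mm10 are named, without roles, per the submitters' processing notes. No count column lacked a sample (0 columns). Library totals ran from 51985214 to 79323302 counts, all even, and summed to 80.2% to 82.8% of the RPKM totals; 3 fragments of 2 counts set the lower limit. Of 23358 entries, 16280 passed edgeR's filterByExpr (minimum count 10, day as group) and were fitted with TMM scaling, day and genotype in edgeR 4.0.16 (quasi-likelihood F test, two-sided, Benjamini-Hochberg over all genes tested, threshold 0.05) in R 4.3.3; standard errors are the log2 difference over the root of F. The change with day was an interaction term of genotype with log2 of day, centred. Alternatives were RLE factors, total counts only, no filter, at least 1 CPM in 2 libraries, DESeq2 1.42.0, limma-voom (limma 3.58.1), halved counts and leaving out each day pair. The scripts were tested on simulated data. Exact 95% intervals on fragments cover counting error only.

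The 10 genes and the lists were chosen with earlier results of these data known. From each list, up to 4 genes with the smallest p among those passing for the genotype difference or for day 14 against day 3 were named, and the 2 genes most like each TGF-β isoform; other names are said to have been chosen later, except Ltbp3 and Ltbp4, named as the remaining latent binders, also after their values were seen. Promoter windows came from RefSeq, GRCm38.p6, and overlaps from GENCODE annotation of that build.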

Additional observations from a re-analysis of the deposited data

Results flagged for a closer look

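The results here stand out because the single libraries of the genotypes went opposite ways or changed sign between days. None of these differences was tested library by library, since each genotype has 1 library per day, and the test across all days called none of these genes.

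Tgfb2 at day 7 was 0.934 times its day 3 level in wildtype cells and 1.11 times in Ezh2-deficient cells. From day 7 to day 14 the factor was 1.65 in wildtype and 0.820 in Ezh2-deficient cells, and from day 3 to day 14 it was 1.54 and 0.911. The Ezh2-deficient level over the wildtype level was 1.34 at day 3 and 1.60 at day 7, but 0.796 at day 14.

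Tgfbr3 at day 14 was 1.12 times its day 3 level in wildtype cells and 0.908 times in Ezh2-deficient cells. The genotype ratio of Ltbp2 was 1.32 at day 3 and 1.10 at day 7, but 0.879 at day 14.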

How the results depend on the processing

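The genotype fit pairs the libraries by day, with day as a term; the labels give no replicate numbers to pair by. The genotype difference called 2 genes, and 9 with RLE factors, 0 with total counts only, 9 with no filter, 1 with at least 1 CPM in 2 libraries, 602 with DESeq2, 40 with limma-voom, and 0 to 863 when a day pair was left out (863 without day 3, 0 without day 7 or day 14). Its change with day called 100 genes, and 270 with total counts only, 247 with no filter, 0 with at least 1 CPM, 320 with DESeq2 and 0 with halved counts. Day 14 against day 7 called 922, and 1918 with DESeq2 and 2276 without the day 3 pair; of the 10 genes it called 5, and 3 with total counts only. Total counts only moved the median of all genes by 0.21 (log2) from day 3 to day 7 and by -0.14 from day 7 to day 14, and the share of calls that were higher from 53.9% to 77.5% and from 59.7% to 44.3%. Signs turned, in values that did not pass, for Ltbp2 between genotypes without the day 3 pair (-0.028, from 0.11; up to 0.27 without another pair), for Tgfbr1 in the change with day (-0.00999 with total counts only) and for Tgfbr2 at day 14 (-0.029 with total counts only, -0.037 from RPKM). The cause was not tested. None of the 10 genes was called for genotype or its change with day under any alternative run. Of the alternative values of the fits of the 10 genes, 398 kept direction and side of the threshold, 8 passed that had not, 2 no longer passed and 2 turned sign. Inhba at day 3 had the lowest counts of the 10 genes (160 and 336), and the effect of depth was not tested.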
